A study of Mus musculus with 24 samples.

Results

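The 12 arrays described here measured gene expression in the ventricle of wild-type (WT) mice at the start and at the end of the first month of life, and they are 12 of the 24 arrays in the series. The members were chosen by their labels alone, as the 6 arrays titled newborn wild type and the 6 titled P30 wt, here called newborn WT and young WT. Newborn hearts were taken at day 1 to 2 and young hearts at day 30, by the labels, and the methods give ages a few days apart from these. The other 12 arrays came from knockout (KO) mice of the same ages, which combined a deletion in the whole body with a floxed gene that Nkx2.5::Cre removed in the heart muscle. By the methods the mice of both genotypes were on a C57BL/6J background, and sources used here give no treatment. Each array held RNA of ventricle tissue, which contains endothelial cells, fibroblasts and blood cells beside the myocytes, and in such bulk samples fewer cells of a type and less RNA per cell cannot be told apart.

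In the mouse, the month after birth turns a growing fetal organ into a mature pump. Ventricular myocytes divide for the last time, exchange fetal for adult isoforms of the contractile proteins, build the tubules and calcium stores that couple excitation to contraction, and move from glucose and lactate to fatty acids as fuel, with a rise in mitochondria. Thyroid hormone rises over the same weeks, the matrix around the cells is rebuilt, and immune cells settle in the tissue. The question put to these arrays was which genes changed between the newborn and the young WT ventricle, in which direction and by how much.

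The deposited values are log2 signals, so that a difference of 1 is a 2-fold change, and 18819 genes were tested with limma at an adjusted p under 0.05. A probe set's signal depends on its probes, so levels are compared only within a gene. Over all genes, 3612 (19.2%) were higher and 5242 (27.9%) lower in young than in newborn WT hearts. At least 2-fold, 517 genes (2.75%) were higher and 968 (5.14%) lower. All 6 young arrays lay above all 6 newborn arrays for 2168 genes (11.5%) and below them for 3417 (18.2%). These shares are the background against which the counts in the gene lists below should be read, but they differed with signal. The genes were cut into 3 equal parts by mean signal on the WT arrays. In the low part 9.12% were higher and 4.32% lower, in the middle part 18.5% and 40.1%, and in the high part 29.9% and 39.1%. A list of brighter or dimmer genes can therefore differ from the shares over all genes through its signal. The lists were not matched by signal. The median difference over all genes was 0.002. After each array was centred on its median it was 0.260, and the calls then divided into 9842 higher and 2989 lower, so the balance of rises and falls among small differences depends on the scaling. Values below are as deposited. Centring turned the majority direction of 8 of 55 gene lists, with 7 higher and 3 lower for the intercalated disc, 11 and 8 for brakes of the cell cycle, 10 and 6 for growth-switch genes, 9 and 4 for the BCL2 family, 7 and 3 for death receptors, 13 and 4 for endothelial genes, 4 and 1 for markers of thymus, lung and liver, and 16 and 4 for the cytosolic ribosome.

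Before the results, 3 properties of the arrays need stating. Xist, the RNA that coats the inactive X chromosome of females, was high on 1 of 6 newborn and 3 of 6 young WT arrays, so the sexes were not balanced between the ages, although the study's methods name equal numbers of males and females for WT hearts. The mean of 3 Y-linked genes had a median of 7.50 in newborn and 5.38 in young arrays, a difference between the age means of -1.46 that did not pass the test (exact two-sided permutation test, p = 0.314). On the arrays with high Xist, in both genotypes, the Y-linked mean was 2.76 to 3.30, which shows where the signal of a silent gene lies. Young WT arrays 2 and 5 carried atrial transcripts. The mean of 14 atrial markers, Nppa left out, was 9.02 and 7.77 on these arrays, 5.82 to 6.19 on the other 4 young arrays and 7.33 to 9.13 on the newborn arrays. Across the ages it differed by -1.84 (exact two-sided permutation test, p = 0.026, where 0.00216 is the smallest p the design allows). Young WT array 2 also carried fat cell transcripts, with Ucp1, the uncoupling protein of brown fat, at 10.14 against 3.01 to 4.07 on the other young arrays. With arrays 2 and 5 both left out, 3557 genes were higher and 5079 lower. With the atrial mean as a term in a fit of the 12 WT arrays, 2507 were higher and 3794 lower, and 23 of the 278 called genes named here lost their call, among them Myl7, Myl4, Nppa, Cacna1h, Cnn1, Plvap, Pdgfra, Upk3b and Flna. Markers of the ventricle were high at both ages, with Myl2, the ventricular regulatory light chain, at 12.14 to 12.53 in newborn and 12.38 to 12.59 in young arrays. Hey2 and Irx4, also markers of ventricular myocytes, fell by 3.06 and 0.86. Of the markers of thymus and lung, Dntt, Sftpc and Sftpb lay between 2.19 and 3.58 in both groups, Ptcra of thymus reached 4.30 on a young array, and Scgb1a1 of the airways was 7.74 on young array 2 and 5.12 on young array 1, against 2.74 to 3.03 on newborn arrays. Markers of liver were higher on some newborn arrays. Alb reached 5.59 there and Apoa1 4.83, against at most 3.48 and 4.16 on young arrays, and neither difference was called. In the whole list of 19 thymus, lung and liver markers 1 gene was called, lower by 1.40 in young hearts. With no detection call at hand, a difference may understate the change where 1 age lies near the level of silent genes. A median of 3.5 or less was found, beside Xist, Ucp1, Alb and the markers of thymus and lung, in young hearts for Agtr2, Bex1, Bmp10, Igf2bp3, Mir30e, Mir503 and Ngp, in newborn hearts for Lgi1, Plaat1 and Mir122, and at both ages for Casp1.

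**Figure D1:**
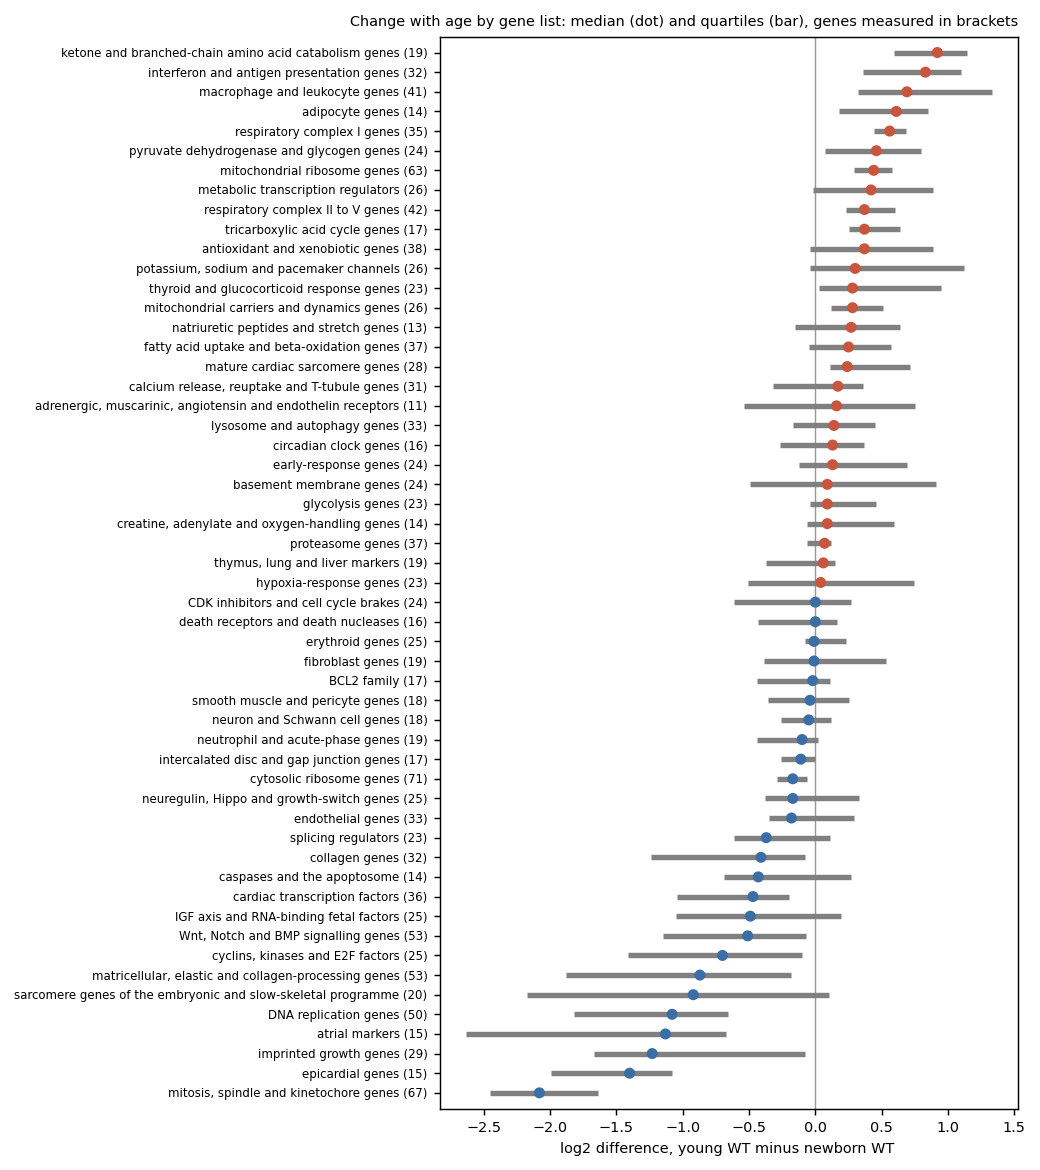
Each row is a gene list, with the number of measured genes in brackets; the dot is the median log2 difference of young WT minus newborn WT (horizontal axis) and the bar spans the quartiles of the list. Medians run from -2.08 for the mitosis list to 0.92 for ketone and branched-chain amino acid catabolism.

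Genes of the fetal heart stood among the largest falls. Tnni1, the slow skeletal troponin I that the heart uses before birth, fell 108-fold. It lay between 11.67 and 11.84 in the newborn arrays, with a median of 11.74, and between 4.28 and 5.86 in the young arrays, with a median of 4.93, which gives a log2 difference of -6.76 (SE 0.19, adjusted p = 1.68e-18). Dlk1, an imprinted ligand of the Notch family, read 9.79 to 10.08 in newborn hearts (median 9.87) and 4.48 to 5.59 in young hearts (median 4.88) and fell 31.4-fold. Capn6, a calpain without protease activity, fell 32.2-fold. Bmp10, a growth factor of the embryonic heart, fell by 4.96 to young values at the level of silent genes, and it is also an atrial marker. They were 3.44 and 3.36 on arrays 2 and 5, within 3.02 to 3.69 on the rest, so the fall of Bmp10 was as large without those arrays (-4.99). With microRNA genes and gene models without a proper symbol (clone names and predicted genes) set aside, the remaining genes of the 12 largest falls without overlap between the ages were Myh7 (-4.34), Tmem255a (-4.28), P4ha3 (-4.23), Aldoc (-4.16), Cpa1 (-4.01), Igf2bp3 (-3.93), Bex1 (-3.51) and Prss35 (-3.49), each as a log2 difference.

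Muscle genes stood among the largest rises. Xirp2, an actin-binding repeat protein of the Z-disc and intercalated disc, rose 26-fold. It went from a newborn range of 5.38 to 6.04 (median 5.61) to a young range of 10.29 to 10.48 (median 10.41). Rpl3l, the muscle-specific paralogue of ribosomal protein L3, read 4.35 to 5.00 in newborn hearts (median 4.67) and 8.60 to 9.36 in young hearts (median 9.25), which gives a log2 difference of 4.51 (SE 0.14, adjusted p = 5.63e-18). Tuba8, a divergent alpha-tubulin, rose 22.1-fold. Trim72, a membrane repair protein of muscle also called MG53, rose 12-fold with the smallest adjusted p of the table (8.87e-20), which it shared with Xirp2. With the same gene models set aside, the 12 largest rises went on with Plaat1 (4.40), Lgi1 (3.99), Ces1d (3.97), a carboxylesterase, Lrtm1 (3.76), Cbr2 (3.72), Rxrg (3.69), a retinoid X receptor, Itgb6 (3.60), an integrin subunit, and Cd74 (3.57), the invariant chain of antigen presentation. For all of these genes the 6 young arrays lay above the 6 newborn arrays.

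Contractile genes of the early and the mature programme were counted apart. Of 20 sarcomere genes of the embryonic and slow-skeletal programme, 10 fell, 3 rose and 7 were not called. Of 28 mature cardiac sarcomere genes, 19 rose and 0 fell, with a median of 0.24 against 0.002 over all genes. Myh7, the slow beta-myosin heavy chain of the fetal mouse ventricle, lay between 11.11 and 11.70 in the newborn arrays, with a median of 11.21, and between 6.57 and 7.94 in the young arrays, with a median of 6.68, a fall of 20.2-fold (-4.34, SE 0.20, adjusted p = 4.95e-15). The alpha-myosin partner Myh6 is not analysed here. Tpm2, beta-tropomyosin, fell by 1.43 and Tpm1, the cardiac alpha form, rose by 0.29. Tnni3, the adult cardiac troponin I, rose only by 0.29, from a signal that was already 12.23 to 12.44 in newborn arrays. Myl4 and Myl7, the atrial light chains that the fetal ventricle also makes, fell by 3.49 and 4.49, but here the groups overlapped. Myl7 was 12.10 and 10.41 on the young arrays 2 and 5 and 3.58 to 5.12 on the other 4, against 9.10 to 11.60 in newborn arrays. Without the 2 arrays the differences were larger, at -6.86 for Myl7 (adjusted p = 6.82e-07) and -5.29 for Myl4 (adjusted p = 2.99e-07), and with the atrial mean in the model that of Myl7 turned to 0.12 (adjusted p = 0.9). Both genes are among the 14 markers in that mean. How much of the newborn signal came from atrial tissue was not tested. Against the direction of its list, Acta1, skeletal alpha-actin, rose by 2.60 (adjusted p = 2.08e-09). Xirp2 and Nebl (0.37), which were placed in the same list, rose as well. Xirp2 is the Z-disc and intercalated disc protein named above, so a place in this list does not make a gene an early form.

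Within the mature list, the largest rises were of proteins of the Z-disc and its surroundings. Myot, myotilin, read 4.45 to 5.02 in newborn hearts (median 4.61) and 7.16 to 7.45 in young hearts (median 7.29) and rose 6.27-fold. Cavin4, which shapes caveolae and T-tubules in muscle, rose by 1.61 and Tcap, the titin cap, 2.82-fold. Lmod2, an actin filament nucleator, rose by 1.38 and Ttn, titin itself, by 1.21 (adjusted p = 7.54e-14). The core thin filament genes were high from birth. Tnnt2 differed by -0.00 (adjusted p = 0.982), Actc1 rose by 0.11, a call lost in 9 of 24 fits that left out 1 array, and Myl2 differed by 0.11 (adjusted p = 0.18). The highest value on any array was 13.5, and whether differences near it are compressed was not tested.

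Among genes of excitation and calcium handling the changes ran both ways. Of 31 genes for calcium release, reuptake and T-tubules, 16 rose and 8 fell. Hrc, the histidine-rich calcium-binding protein of the sarcoplasmic reticulum, went from a newborn range of 8.29 to 8.68 (median 8.53) to a young range of 10.01 to 10.59 (median 10.39) and rose 3.51-fold. Cacna2d1, an auxiliary subunit of the L-type calcium channel, rose by 1.49, while the pore gene Cacna1c differed by 0.17 (adjusted p = 0.0622). Cacna1c passed the test in 2 of 24 fits that left out 1 array, with differences of 0.14 to 0.22 over all of them. Jph1 and Jph2, the junctophilins that hold T-tubule and reticulum together, rose by 0.94 and 0.68, and Ryr2, the release channel, by 0.79. Atp2a2, the calcium pump, rose by 0.24 and its inhibitor Pln by 0.17. The T-type calcium channels Cacna1h and Cacna1g, which belong to the fetal ventricle and to pacemaker cells, fell by 1.08 and 0.70, and the sodium-calcium exchanger Slc8a1 fell by 0.52.

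Of 26 potassium, sodium and pacemaker channel genes, 11 rose and 5 fell. Kcnd2, a pore subunit of the transient outward potassium current, which gives the mouse its short action potential, lay between 6.53 and 7.11 in the newborn arrays, with a median of 6.72, and between 8.92 and 9.50 in the young arrays, with a median of 9.26, a log2 difference of 2.42 (SE 0.12, adjusted p = 1.18e-14). Kcnd3 rose by 1.80 and the auxiliary subunit Kcnip2 by 0.97. Hcn2, a pacemaker channel, rose by 2.31, and Scn4b, a sodium channel beta subunit, by 1.40. On the falling side, Kcne1, the beta subunit of the slow delayed rectifier, fell by 1.37 and Kcnh2 by 0.46. Kcna4, the slower transient outward channel, fell by 0.46, a call lost after median centring (-0.21, adjusted p = 0.111) and after a new quantile normalization (-0.21, adjusted p = 0.143). Among 11 receptor and signalling genes of the autonomic and peptide systems, Chrm2, the cardiac muscarinic receptor, rose by 1.13. Agtr2, the angiotensin receptor of fetal tissue, fell by 1.76 and Ednrb, an endothelin receptor, by 1.68. Transcripts of the discs that join myocytes changed in both directions. Of 17 genes of the intercalated disc, 2 rose, the desmosome genes Dsp (0.65) and Dsc2 (0.65), and 7 fell. After median centring 7 rose and 3 fell. Gja1, the main ventricular connexin, differed by -0.13 (adjusted p = 0.148), Gjc1 fell by 0.90 and Gja5 by 2.51. Gja5 is also an atrial marker and was 8.24 on young array 2, against 5.55 to 6.71 on the other young arrays.

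Pairs of genes that code for the same step were set side by side. Of 25 pairs of an early or widely expressed form and a mature or muscle form, 21 were measured on both sides. In 21 of these 21 the difference with age was higher for the mature form than for its partner. In 12 pairs the early form fell and the mature form rose, and in all 15 early forms fell and 18 mature forms rose. After median centring these counts were 10, 11 and 20, and after a new quantile normalization 9, 15 and 15, with the mature form higher in difference in 21 and 20 pairs. Because the pairs were put together from the known biology of muscle, this count describes them and is no test. The partners of translation were among the clearest. Rpl3 fell by 1.13 while Rpl3l rose by 4.51, and Eef1a1, the elongation factor of most cells, fell by 0.85 while Eef1a2, that of muscle and neurons, rose by 1.40. In the respiratory chain, the liver-type subunits Cox6a1 and Cox8a fell by 0.88 and 0.37, and the heart-type Cox6a2, Cox8b and Cox7a1 rose by 0.74, 0.64 and 1.27. Cox7a2, the partner of Cox7a1, differed by 0.07 and was not called. The call of Cox8a was lost after median centring (-0.11, limma, adjusted p = 0.168). Slc2a1, the fetal glucose carrier, read 9.06 to 9.33 in newborn hearts (median 9.22) and 8.35 to 8.84 in young hearts (median 8.59) and fell by 0.62. Slc2a4, the insulin-responsive carrier, rose by 1.57, and Hk2, the insulin-regulated hexokinase, by 1.93, beside -0.11 for Hk1 (adjusted p = 0.332). Fabp5 fell by 1.32, and its heart partner Fabp3, already high, differed by 0.12 (adjusted p = 0.135). Other pairs were Pgam1 (-0.30) with Pgam2 (0.46), Ckb (-0.29) with Ckm (0.20), Slc25a5 (-0.40) with Slc25a4 (0.23), Flna (-0.73) with Flnc (0.79), Pfkl (0.42) with Pfkm (0.74), Pygb (0.25) with Pygm (0.74) and Myom3 (0.24) with Myom2 (0.31). In the last 3 of these pairs both forms rose, though the call of Myom3 was lost in 12 of 24 fits that left out 1 array.

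**Figure D2:**
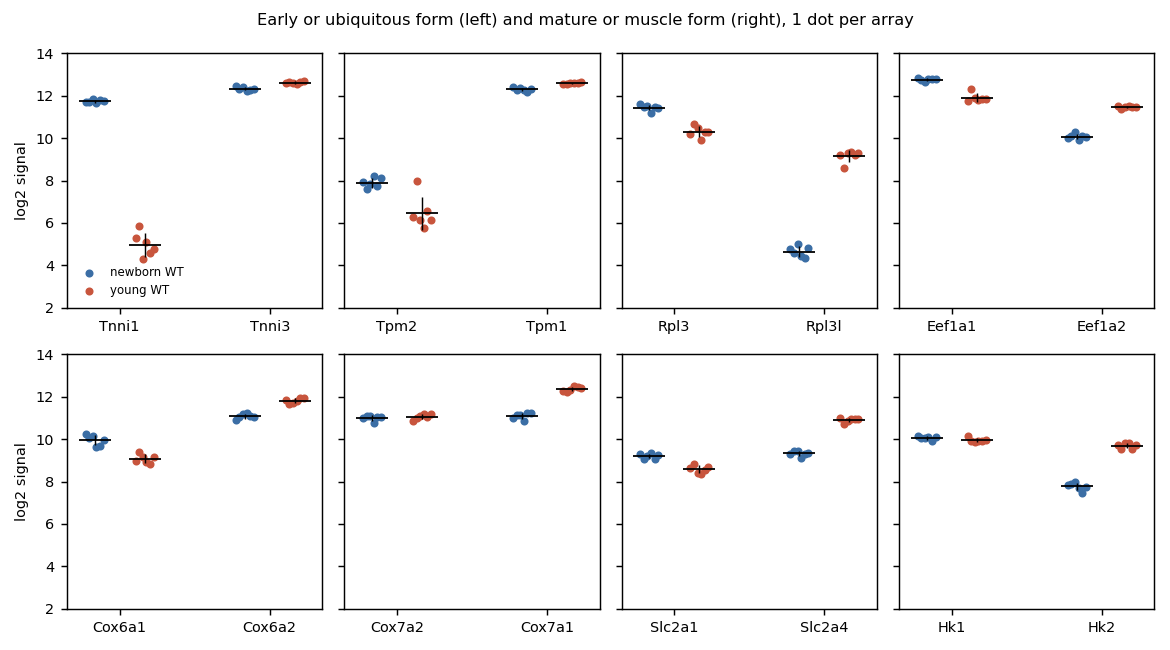
Each panel shows the log2 signal (vertical axis) of an early or ubiquitous form on the left and of its mature or muscle partner on the right, with 1 dot per array, the mean as a horizontal line and the SD as a vertical line, for 6 newborn WT (blue) and 6 young WT arrays (red). Tnni1, Rpl3 and Cox6a1 are lower in young arrays, and Rpl3l, Eef1a2 and Hk2 are higher without overlap; signals of different genes are not comparable.

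Respiratory chain genes rose by small steps. Of 35 complex I genes 34 rose and 0 fell, with a median of 0.56, where Ndufb3 (1.33), Ndufa5 (0.99) and Ndufa12 (0.86) rose most and Ndufc2 was not called (-0.01). The mean of these genes was 9.98 to 10.27 on newborn and 10.55 to 10.82 on young arrays, so the ages did not overlap. Of 42 genes of complexes II to V, 35 rose and 2 fell, the falls being Cox6a1 and Cox8a. Of 17 genes of the tricarboxylic acid cycle, which feeds the chain, 15 rose, led by Pcx, pyruvate carboxylase (1.46), Sucla2 (0.93) and Ogdh (0.74). Among the young arrays Pcx stood apart as highest on array 2, which carried fat cell transcripts. The mitochondrial ribosome, which makes the chain's own subunits, had 50 of 63 genes higher and 1 lower. That gene, Mrps10, fell by 0.24 and turned to 0.02 after median centring, and its call was lost without newborn WT array 1, 2 or 3 or young WT array 1, 2 or 6 (adjusted p up to 0.103). Rises were also called for 18 of 26 carriers and dynamics genes, among them the fusion genes Mfn1 (0.63), Mfn2 (0.52) and Opa1 (0.54).

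The list with the highest median, 0.92, was the catabolism of ketones and branched-chain amino acids, with 17 of 19 genes higher and 0 lower. Bdh1, the dehydrogenase that opens ketone use, went from a newborn range of 4.18 to 4.93 (median 4.70) to a young range of 6.42 to 7.81 (median 7.53) and rose 6.64-fold. Oxct1, the transferase that activates acetoacetate in tissues that burn ketones, rose by 2.04. For branched-chain amino acids, Pcca (1.39), Mccc2 (1.24) and Ivd (1.21) rose, as did the dehydrogenase subunits Bckdha (1.05) and Bckdhb (0.94). The fatty acid list was more mixed, with 20 of 37 genes higher and 6 lower. Acsl6 (1.71), an acyl-CoA ligase, Dgat2 (1.48), which stores triglyceride, Plin5 (1.31), which coats lipid droplets in oxidative tissue, and Lpl (1.04) rose most. Core enzymes of beta-oxidation rose less, as for Echs1 (0.74), Cpt2 (0.56) and Acadm (0.37), and Acadl (-0.01, adjusted p = 0.852) and Hadha (-0.04, adjusted p = 0.591) were not called. Cpt1a, the liver-type gatekeeper of fatty acid import, lay between 10.02 and 10.28 in the newborn arrays, with a median of 10.18, and between 8.60 and 8.77 in the young arrays, with a median of 8.67 and fell by 1.49. Its muscle partner Cpt1b is not analysed here. Ucp3 fell by 1.17.

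Glycolysis did not fall as a list. Of 23 genes 11 rose and 5 fell, with a median of 0.09. Besides Hk2 and Slc2a4, Pfkfb2, the heart isoform of the enzyme that makes the activator of phosphofructokinase, rose by 1.84. Aldoc, the aldolase of brain and fetal tissues, fell 17.9-fold, and Slc16a3, the carrier that exports lactate, fell by 1.34, while Slc16a1, which imports it, rose by 0.74. Gapdh differed by 0.09 (adjusted p = 0.0823) and Ldha by 0.05 (adjusted p = 0.586). In the step from pyruvate to the mitochondrion, Mpc1, a subunit of the pyruvate carrier, rose by 1.09, Pdhx by 0.99 and the phosphatase Pdp2, which activates the complex, by 1.52. Of the inhibitory kinases, Pdk3 fell by 2.68, Pdk2 rose by 0.46, and Pdk4 differed by -0.01 (adjusted p = 0.98). Of the glycogen phosphorylases, the liver gene Pygl fell by 1.91, while Pygb rose by 0.25 and the muscle gene Pygm by 0.74. Among the young arrays Pygl was highest on array 2, which carried fat cell transcripts. Ckmt2, the mitochondrial creatine kinase of heart, read 8.21 to 9.34 in newborn hearts (median 8.97) and 11.50 to 11.75 in young hearts (median 11.59) and rose 6.31-fold.

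Regulators of these programmes changed too. Of 26 metabolic transcription regulators 17 rose and 4 fell. Rxrg, the partner of many nuclear receptors, rose 12.9-fold, and Thrb, the beta thyroid hormone receptor, went from a newborn range of 4.42 to 4.87 (median 4.68) to a young range of 6.73 to 7.07 (median 6.92), a log2 difference of 2.24 (SE 0.11, adjusted p = 8.88e-15). Perm1 (1.40), a muscle co-regulator of mitochondrial genes, Esrrb (1.34), Ppara (0.92) and Esrra (0.53) rose. Ppargc1a, the best known coactivator of mitochondrial growth, differed by -0.09 (adjusted p = 0.382), and Nrf1, a factor for respiratory genes, fell by 0.49. Genes that respond to thyroid hormone and glucocorticoid had 12 of 23 higher and 3 lower. Thrsp, named for its response to thyroid hormone, rose by 2.40, and by 1.98 (adjusted p = 4.13e-07) without young array 2, which carried fat cell transcripts and was its highest array; Thrsp also acts in fat synthesis. Hr, the hairless corepressor and a thyroid target, rose by 1.93. Fkbp5, a glucocorticoid target, fell by 1.37, and Klf9 (0.97) and Klf15 (0.93) rose.

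Genes of cell division fell. Of 67 genes of mitosis, spindle and kinetochore 64 fell and 1 rose, with a median of -2.08, and of 50 DNA replication genes 47 fell and 0 rose, with a median of -1.08, against 27.9% lower over all genes. The mean of the mitosis list was 6.27 to 7.29 on newborn and 4.78 to 5.38 on young arrays. Cdk1, the kinase that drives entry into mitosis, lay between 7.82 and 9.13 in the newborn arrays, with a median of 8.81, and between 5.14 and 6.49 in the young arrays, with a median of 5.81, a log2 difference of -2.85 (SE 0.27, adjusted p = 4.17e-09). Bub1, of the spindle checkpoint, fell 8.37-fold and Ccna2, cyclin A2, 7.34-fold. Mki67, the common proliferation marker, read 7.25 to 8.61 in newborn hearts (median 8.27) and 5.39 to 6.81 in young hearts (median 6.17) and fell 4.08-fold. In replication, Rrm2, the ribonucleotide reductase subunit made in S phase, fell 8.36-fold, Cdt1, a licensing factor, by 2.31 and Chaf1b, a histone chaperone, by 2.29. The 6 subunits of the replicative helicase fell by 1.84 (Mcm2), 1.83 (Mcm3), 1.62 (Mcm4), 2.06 (Mcm5), 2.10 (Mcm6) and 2.06 (Mcm7). Pcna, the sliding clamp, fell by 0.94. The exception was Pttg1, securin, which went from a newborn range of 6.11 to 6.82 (median 6.60) to a young range of 7.37 to 7.61 (median 7.45) and rose by 0.89 (adjusted p = 2.12e-05). Newborn array 4 had the lowest mean of both lists, 6.27 for mitosis and 6.54 for replication.

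Among the controllers of the cycle, 17 of 25 cyclins, kinases and E2F factors fell and 3 rose. The E2F factors that switch genes on fell, with E2f1 (-1.85) and E2f2 (-0.93), as did the atypical repressors E2f7 (-1.42) and E2f8 (-2.06), while E2f6 rose by 0.76 and E2f4, a repressor of resting cells, differed by 0.11 (adjusted p = 0.327). Rbl1, the p107 pocket protein, fell by 1.64 and Rb1 rose by 0.32. Of 24 inhibitors of cyclin-dependent kinases and other brakes of the cell cycle, 7 rose (29.2%) and 11 fell (45.8%). Over all genes these shares were 19.2% and 27.9%. After median centring 11 of the brakes rose and 8 fell, so the direction of the list depends on the scaling. Cdkn1c, the imprinted inhibitor p57, fell by 1.47 and Cdkn1b, p27, by 0.76, while Cdkn1a, p21, differed by 0.32 (adjusted p = 0.155). Cdkn1a passed the test in 1 of 24 fits that left out 1 array (limma, adjusted p = 0.0134), with differences of 0.24 to 0.49. Gadd45a (0.96), Tob2 (0.93) and Ccng1 (0.93) rose. Among receptors and effectors that set myocyte growth, Erbb2, the co-receptor for neuregulin, fell 3.33-fold and Tead2, a Hippo pathway factor, 6.7-fold. The effector Yap1 differed by 0.11 (adjusted p = 0.0909), and Fgf1 and Fgf16 rose by 1.17 and 1.12.

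The promoters of the division genes are shown because the genes fell together, and motif counts are given beside those of all promoters and of other lists. RefSeq promoter windows, from 250 bases before to 50 after the start site (build GRCm38.p6), were at hand for 14749 of the genes tested, in 18155 windows, since some genes have several starts. The cell cycle genes homology region, a motif of late cell cycle promoters, was searched as TTTGAA on both strands. It was in 14.8% of all windows and in 64.5% of those of the mitosis list (40 of 62), against 15.1% for the replication list (8 of 53). Among all genes called lower the share was 12.4%, and 19.5% among those at least 2-fold lower. CCAAT, the box bound by NF-Y, was in 37.5% of all windows, 72.6% of the mitosis windows and 60.4% of the replication windows. Lists that rose held it too, with 72.7% of the tricarboxylic acid cycle windows (16 of 22) and 52.8% of those of complexes II to V. The E2F motif TTTCGCG was in 1.21% of all windows, 3.23% of the mitosis and 22.6% of the replication windows (12 of 53), and TTGGCGC in 3.33%, 12.9% and 24.5%, beside 22.7% for the tricarboxylic acid cycle (5 of 22) and 11.1% for complexes II to V. A match is a description of letters and not a measured site. The mitosis motif lay close to the start. Of 52 matches in mitosis windows 73.1% lay within 50 bases of it, against 22.4% of 3023 matches in the windows of other genes. The promoters below run from 170 bases before to 30 after the start, 5′ to 3′ along the gene, with TTTGAA (or its reverse complement) and CCAAT (or its reverse complement) in capitals. The genes are the members of the mitosis list with the largest falls whose only window holds both motifs in that stretch.
Cdk1 (chr10:69352883-69353082, minus strand): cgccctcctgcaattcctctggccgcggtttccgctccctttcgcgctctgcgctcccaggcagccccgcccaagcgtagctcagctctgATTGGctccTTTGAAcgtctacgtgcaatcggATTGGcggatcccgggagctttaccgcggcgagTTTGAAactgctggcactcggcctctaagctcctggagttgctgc
Racgap1 (chr15:99651627-99651826, minus strand): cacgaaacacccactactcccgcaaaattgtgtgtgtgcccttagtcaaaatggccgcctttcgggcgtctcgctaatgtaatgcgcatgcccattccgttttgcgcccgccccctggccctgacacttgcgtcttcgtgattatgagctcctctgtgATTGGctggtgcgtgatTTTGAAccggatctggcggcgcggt
Kif11 (chr19:37376212-37376411, plus strand): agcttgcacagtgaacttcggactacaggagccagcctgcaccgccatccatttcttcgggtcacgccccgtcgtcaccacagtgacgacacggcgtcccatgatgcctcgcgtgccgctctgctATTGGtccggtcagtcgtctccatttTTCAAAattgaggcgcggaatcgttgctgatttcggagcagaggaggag
Racgap1, a regulator of the cleavage furrow, fell by 2.81 and Kif11, the kinesin that separates spindle poles, by 2.66. In Cdk1 the first motif began 71 and 15 bases before the start, and CCAAT, in reverse, 80 and 48 bases before it. For replication, chosen in the same way, TTTCGCG and CCAAT (or their reverse complements) are in capitals.
Mcm6 (chr1:128359676-128359875, minus strand): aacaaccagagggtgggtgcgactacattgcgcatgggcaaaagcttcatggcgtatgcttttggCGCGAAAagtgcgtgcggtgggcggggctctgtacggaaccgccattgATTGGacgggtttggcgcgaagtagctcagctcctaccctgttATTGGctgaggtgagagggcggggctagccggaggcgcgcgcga
Mcm5 (chr8:75109339-75109538, plus strand): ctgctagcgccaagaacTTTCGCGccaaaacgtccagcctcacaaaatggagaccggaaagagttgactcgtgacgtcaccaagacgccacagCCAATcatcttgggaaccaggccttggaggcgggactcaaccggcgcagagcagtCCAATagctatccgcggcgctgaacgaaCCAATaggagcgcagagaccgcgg

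**Figure D3:**
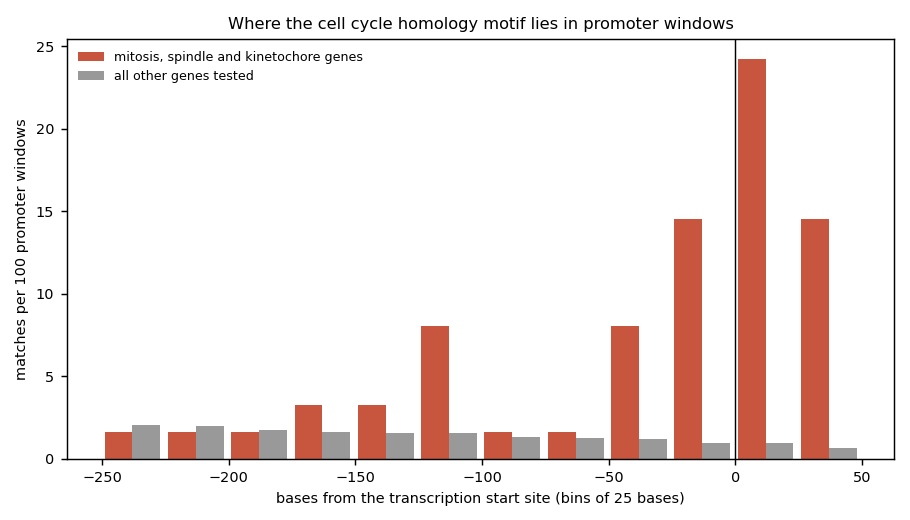
Matches to the cell cycle genes homology motif per 100 promoter windows (vertical axis) by the distance of their first base from the transcription start site (horizontal axis, bins of 25 bases), for mitosis, spindle and kinetochore genes (red, 62 windows) and all other genes tested (grey). The mitosis genes peak within 50 bases of the start, where 73.1% of their matches lie.

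In all, 16 motifs were searched on both strands. Besides those above, TTTAAA was tried as a variant of the homology region, and TTCGCGC, an E2F form, overlaps TTTCGCG. For nuclear receptors, TCAAGGTCA and its shorter form AAGGTCA both hold the core AGGTCA, which was also counted alone. CATTCCT was used for TEAD factors and CCGGAAG for ETS factors. The search ended with GCATGCGC, a core form of the NRF1 site, and with sites of NRF1, SRF and MEF2 (2 forms). Over all windows, the share was 11.5% for the variant TTTAAA, 2.22% for the overlapping E2F form, 0.292% for the longer and 3.86% for the shorter receptor form, 4.73% for the TEAD motif, 3.82% for the NRF1 core, 1.46% for the NRF1 site, 0.0275% for the SRF site, and 0.165% and 0.0881% for the MEF2 sites. AGGTCA was in 14.3% of all windows, 28.6% of the fatty acid windows (10 of 35) and 31.8% of the tricarboxylic acid cycle windows (7 of 22). It was in 18.5% of windows of genes that rose at least 2-fold and 9.7% of those that fell at least 2-fold. CCGGAAG was in 12.1% of all windows, 33.3% for complexes II to V, 31% for the mitochondrial ribosome, 24.5% for replication, 22.6% for mitosis and 11.8% for complex I.

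Genes of cell death changed in both directions. Of 14 caspase and apoptosome genes 7 fell (50%) and 4 rose (28.6%), against 27.9% and 19.2% over all genes. Casp6, an executioner caspase, read 8.98 to 9.28 in newborn hearts (median 9.12) and 7.79 to 8.03 in young hearts (median 7.90) and fell 2.32-fold. Casp2 fell by 1.21, the initiator Casp9 by 0.70, Apaf1, the scaffold of the apoptosome, by 0.67 and Casp8 by 0.46, whereas Casp1, of inflammation, rose by 0.54. Birc5, survivin, which is also a mitosis gene, fell by 1.67. In the BCL2 family 7 of 17 genes fell (41.2%) and 4 rose (23.5%), but 4 fell and 9 rose after median centring. The pro-death members Bmf (-1.45), Bcl2l11 (-1.04) (Bim) and Bik (-0.84) fell, and Bak1 differed by -0.01 (adjusted p = 0.954). Bnip3, which acts in the clearance of mitochondria, rose by 0.66. Of 16 death receptors and nucleases 6 fell (37.5%) and 4 rose (25%), but 3 fell and 7 rose after median centring. Among them Fas rose by 1.18 and Ripk3 fell by 1.01.

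Fetal growth genes formed another falling set. Of 29 imprinted growth genes 21 fell and 2 rose, with a median of -1.23. After Dlk1, Plagl1, an imprinted zinc finger factor, fell 9.04-fold and Mest 8.76-fold. Igf2, the fetal insulin-like growth factor, lay between 12.10 and 12.32 in the newborn arrays, with a median of 12.19, and between 9.14 and 9.61 in the young arrays, with a median of 9.41 and fell 7.04-fold (-2.81, SE 0.10, adjusted p = 8.07e-17). Peg10 (-2.72), Peg3 (-2.22), Grb10 (-1.80), Meg3 (-1.62) and Igf2r (-1.17) fell as well. The RNA-binding proteins of fetal tissue that hold Igf2 mRNA followed, with Igf2bp3 down by 3.93 to a mean of 3.38 on the young arrays, near the level of silent genes, and Igf2bp1 down by 2.62. Myc fell by 2.03 and Hmga2 by 0.94, and Igf1r, the receptor, by 1.23. Of 25 genes of the IGF axis and fetal RNA-binding factors 4 rose and 13 fell. Among genes of insulin signalling, Irs1 (0.63), Irs2 (0.61) and Insr (0.28) rose, and the call of Insr was lost with the atrial mean in the model (0.20, adjusted p = 0.159).

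The factors that build the heart were lower in most cases. Of 36 cardiac transcription factors 23 fell and only Srf rose (0.33). Hey2, a ventricular Notch target, went from a newborn range of 9.79 to 10.23 (median 10.12) to a young range of 6.79 to 7.29 (median 6.99) and fell 8.31-fold. Sox11 (-2.29), Gata5 (-2.07) and Tbx18 (-1.91) fell. The core factors changed less, as for Nkx2-5 (-0.21, and 0.04 after median centring, a call lost in 15 of 24 fits that left out 1 array, with adjusted p up to 0.129), or were not called, as for Gata4 (-0.18, adjusted p = 0.0503) and Mef2c (0.05, adjusted p = 0.543). Gata4 passed the test in 8 of 24 fits that left out 1 array. Among 53 genes of Wnt, Notch and BMP signalling 32 fell and 4 rose. Sfrp2 (-3.14) and Sfrp1 (-2.43), secreted modulators of Wnt, and Bmp7 (-2.90) fell most after Bmp10. Of 23 splicing regulators 16 fell and 5 rose. Ptbp1 (-0.95) and Celf1 (-0.37) fell, and Mbnl1 (0.47) and Rbfox1 (0.47), which act in the adult pattern of muscle splicing, rose.

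MicroRNA genes add a layer to this picture. Of 304 microRNA genes tested, 28 were higher and 36 lower, which at 9.21% and 11.8% is below the 19.2% and 27.9% over all genes. In the part of all genes with the lowest signal the shares were 9.12% and 4.32%. MicroRNA genes were not matched to other genes by signal, so their place against the background is open. The probes read the hairpin or its host transcript, so the values say nothing of the mature strand. Mature sequences from RefSeq (GRCm38.p6) were at hand for 59 of the 64 called genes, and the strands below are shown because their genes changed most or share a seed. Each is written 5′ to 3′ with the seed, bases 2 to 8, in capitals.
miR-675-5p: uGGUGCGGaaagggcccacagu
miR-208a-3p: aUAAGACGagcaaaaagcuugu
miR-181b-5p: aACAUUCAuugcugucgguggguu
miR-351-5p: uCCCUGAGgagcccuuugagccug
miR-322-5p: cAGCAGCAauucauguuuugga
miR-503-5p: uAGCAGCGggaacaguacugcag
miR-30e-5p: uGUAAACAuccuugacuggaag
miR-30c-5p: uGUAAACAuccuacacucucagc
miR-568: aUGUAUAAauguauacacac
Mir675, which lies within the imprinted H19 transcript, lay between 11.31 and 11.83 in the newborn arrays, with a median of 11.44, and between 7.02 and 7.60 in the young arrays, with a median of 7.37, a log2 difference of -4.14 (SE 0.13, adjusted p = 5.63e-18). H19 itself is not analysed here. Mir703 fell by 1.86. Mir208a, the microRNA within an intron of the alpha-myosin gene, fell by 1.62 (adjusted p = 9.74e-06). Both genes of miR-181b, whose mature strand is 1 sequence, fell, Mir181b-2 by 1.54 and Mir181b-1 by 1.00. On the X chromosome, Mir351 fell by 1.47, Mir503 by 1.06 and Mir322 by 0.69, and miR-322-5p and miR-503-5p share their first seed bases. The seed GUAAACA of the miR-30 family ran both ways, since Mir30e fell by 1.18 and Mir30c-2 rose by 0.47. Mir568 rose by 1.29, the largest rise, and Mir122 (0.52) and Mir219a-1 (0.45) rose less.

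Most transcripts of the collagen and matricellular lists were lower in young hearts. The amount of matrix itself was not measured. Of 32 collagen genes 19 fell and 4 rose, and of 53 matricellular, elastic and collagen-processing genes 34 fell and 5 rose, with a median of -0.87. Col1a1, of fibrillar collagen, went from a newborn range of 9.80 to 10.17 (median 9.90) to a young range of 7.33 to 9.48 (median 8.04), a log2 difference of -1.79 (SE 0.31, adjusted p = 2.43e-05). Among the collagens Col12a1 (-2.46) and Col18a1 (-1.82) fell most, and Col8a1 rose by 1.70. P4ha3, a collagen prolyl hydroxylase, read 8.03 to 8.38 in newborn hearts (median 8.20) and 3.24 to 5.19 in young hearts (median 3.83) and fell 18.8-fold. Fbn2, the fetal fibrillin, fell 10.1-fold, Tnc, tenascin C, 8.24-fold and Postn, periostin, 6.68-fold. The highest young value of Col1a1, 9.48, was on array 2, whose mean of the matricellular list, 8.18, also exceeded the 7.04 to 7.60 of the other young arrays. Basement membrane genes were divided, with 10 of 24 higher and 8 lower. The laminin receptor Itga7, the integrin of mature muscle, rose by 2.02, with the sarcoglycans Sgca (1.11) and Sgcd (1.09), and Agrn (-1.23) and the laminin chain Lamb1 (-1.07) fell.

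Markers of the other cells of the ventricle changed in ways that the matrix genes should be read beside. The mean of 19 fibroblast genes was 7.88 to 8.02 on newborn and 7.55 to 8.61 on young arrays, with 6 genes higher and 4 lower. Dpt differed by -0.28 (adjusted p = 0.204), Pdgfra fell by 0.70, Tcf21 fell by 1.84 and Pi16 rose by 1.90. With 1 array left out Dpt passed the test in 2 of 24 fits, with differences of -0.41 to -0.22 over all of them. Of 33 endothelial genes 10 were higher and 16 lower. Vwf rose by 0.81, and Cldn5 (-0.95) and Plvap (-0.93) fell. Epicardial genes fell in 13 of 15 cases, with the mean at 7.08 to 7.71 on newborn and 5.10 to 7.13 on young arrays, where arrays 2 (7.13) and 5 (6.56) were the highest. Upk3b fell by 2.31 and Wt1 by 0.73. Smooth muscle genes were not moved as a list, with 4 of 18 higher and 4 lower; Cnn1 fell by 2.81 but was 8.33 on young array 2 against 3.92 to 4.85 on the others. The part that these shifts play in the genes above was not tested.

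**Figure D4:**
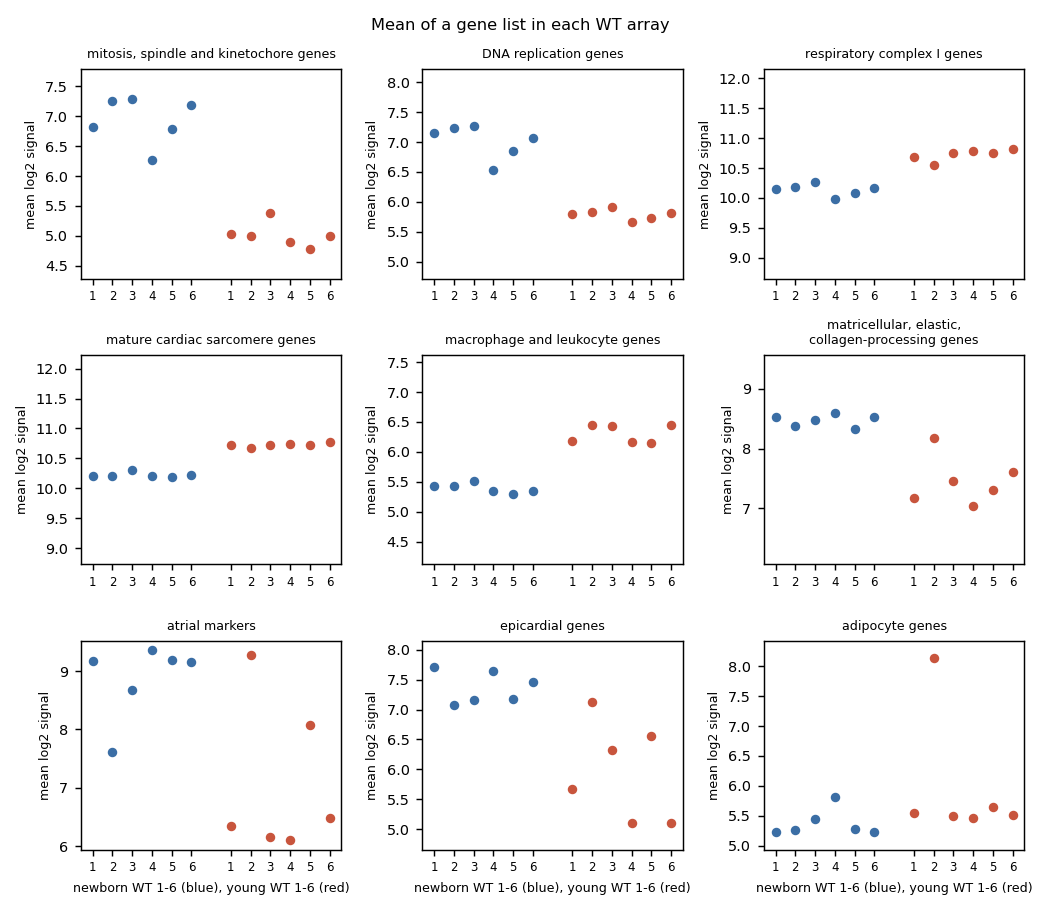
Mean log2 signal (vertical axis) of 9 gene lists in each of the 6 newborn WT (blue) and 6 young WT arrays (red), numbered on the horizontal axis. The lists of division, complex I, mature sarcomere and macrophage genes do not overlap between the ages, while young arrays 2 and 5 stand high for atrial markers (15 genes here, with Nppa) and array 2 for adipocyte genes.

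Immune genes rose. Of 41 macrophage and leukocyte genes 30 rose and 0 fell, with a list mean of 5.29 to 5.52 on newborn and 6.15 to 6.45 on young arrays. The genes of antigen presentation by MHC class II led. Cd74 read 4.99 to 5.36 in newborn hearts (median 5.15) and 8.37 to 9.02 in young hearts (median 8.80), a rise of 11.9-fold, and H2-Aa rose by 3.42, H2-Ab1 by 3.28 and H2-Eb1 by 2.63. Markers of resident macrophages rose by less, with Folr2 (2.57), Lyz2 (2.16), Cd163 (1.61), C1qa (1.33), Adgre1 (1.09), Csf1r (0.82) and Cd68 (0.52). T cell genes were not called, as for Cd3e (-0.27, adjusted p = 0.442). Of 32 genes of interferon response and antigen presentation 25 rose and 0 fell, with a median of 0.83. Ifit3 (1.58), Oas2 (1.55) and Ifi27l2a (1.38) rose most, and the immunoproteasome subunits Psmb8 (1.20) and Psmb9 (1.12) rose while the constitutive subunit Psmb5 differed by 0.12 (adjusted p = 0.144). Of 19 neutrophil and acute-phase genes 1 rose (5.26%) and 5 fell (26.3%), against 19.2% and 27.9% over all genes. The largest fall was that of Ngp (-1.63). The list mean was 3.56 to 3.88 on newborn and 3.44 to 3.76 on young arrays. This is not far above the 2.76 to 3.30 of silent genes, so the list says little about neutrophils.

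Protein synthesis and turnover moved less. Of 71 cytosolic ribosome genes 35 fell and 2 rose, with a median of -0.17. These small falls depend on the scaling: 4 fell and 16 rose after median centring, and 44 fell and 3 rose after a new quantile normalization. Only 8 of 37 proteasome genes rose and 1 fell. Psme4, an activator cap of the proteasome, rose by 1.35. In the lysosome and autophagy list 16 of 33 rose and 10 fell, led by Map1lc3a (0.91) and the muscle ubiquitin ligase Fbxo32 (0.89).

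Stress and defence genes were mixed. Nppa, the atrial natriuretic peptide, went from a newborn range of 11.51 to 12.48 (median 12.46) to a young range of 9.92 to 12.86 (median 10.67) and fell by 1.13 (adjusted p = 0.0261); the 2 highest young values, 12.86 and 12.28, were on arrays 2 and 5, and with the atrial mean in the model the difference turned to 0.35 (adjusted p = 0.124). Without arrays 2 and 5 it was -1.85 (adjusted p = 5.7e-05), and without array 2 alone -1.48 (adjusted p = 0.00168). The fall of Nppa was not called without young WT array 1 (-1.05, adjusted p = 0.0542), 3 (-0.97, adjusted p = 0.0681), 4 (-0.89, adjusted p = 0.0822) or 6 (-1.03, adjusted p = 0.0565). Nppb, the brain natriuretic peptide of the ventricle, read 7.46 to 9.65 in newborn hearts (median 8.42) and 9.98 to 10.29 in young hearts (median 10.07) and rose by 1.68. Of 38 antioxidant and xenobiotic genes 20 rose and 6 fell. Besides Ces1d, the glutathione transferase Gstk1 (2.01), the quinone reductase Nqo1 (1.70) and the extracellular dismutase Sod3 (1.49) rose, and the metallothionein Mt2 (-1.32) and Hmox1 (-0.95) fell. Genes of the response to low oxygen ran both ways, 9 higher and 8 lower of 23. The prolyl hydroxylase Egln3 (1.79) and Epas1 (1.32), the HIF-2 alpha subunit, rose, Hif1a (-0.48) fell, and Hif3a, a modulator of both, lay between 6.21 and 7.88 in the newborn arrays, with a median of 6.72, and between 4.04 and 4.30 in the young arrays, with a median of 4.18 and fell 6.15-fold. In the circadian clock, whose genes vary over the day, Arntl rose by 1.12 and Per2 and Per3 fell by 1.40 and 1.45; the hour at which hearts were taken is not given in the sources used here.

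The change with age in KO hearts, from 12 other samples, is given beside that in WT hearts. In KO hearts 6398 genes (34%) were higher and 4712 (25%) lower in young animals. Of the 3612 WT rises 3158 (87.4%) were also called in KO hearts in the same direction, and of the 5242 WT falls 4188 (79.9%). These shared genes were 49.4% of the KO rises and 88.9% of the KO falls. The number of KO rises depends on dim genes and on the scaling. It was 3719 without the genes under the 30th percentile of signal and 4249 after a new quantile normalization, against 3199 and 4445 in WT hearts. The share of 49.4% rests on the count of 6398. The difference between the genotypes in the change with age was called for 2 genes (0.0106%), while 2427 genes had an unadjusted p under 0.05. That count went from 1 to 24 with 1 array left out at a time, being 24 without young KO array 3, 17 without young WT array 2, 10 without young WT array 5, 6 without young KO array 2 and 4 without newborn WT array 5. Sh3rf2, a scaffold protein with anti-apoptotic activity, lay between 5.95 and 6.87 in the newborn arrays, with a median of 6.29, and between 9.05 and 9.71 in the young arrays, with a median of 9.44 in WT, a rise of 3.09, against 1.41 in KO hearts, where the newborn arrays read 6.32 to 7.10 and the young arrays 7.60 to 8.77. The KO change was lower by 1.68 (SE 0.24, adjusted p = 0.00789). Flnc, the muscle filamin, rose by 0.79 in WT and by 0.17 in KO hearts, a difference of -0.62 (SE 0.10, adjusted p = 0.0303). Sh3rf2 was called with any of the 24 arrays left out and Flnc in 14 of 24 such fits, where its adjusted p reached 0.0872. Of the division genes, the mitosis list had a median of -2.08 in WT and -1.49 in KO hearts, and the replication list -1.08 and -0.76, without a call for the difference of any member. Complex I had medians of 0.56 and 0.55. For Myl7 the KO difference was -0.67 and for Myl4 -0.57, against the WT falls of 4.49 and 3.49, but neither difference between genotypes was called, and 5 of 6 young KO arrays had an atrial marker mean of 7.78 or more.

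**Figure D5:**
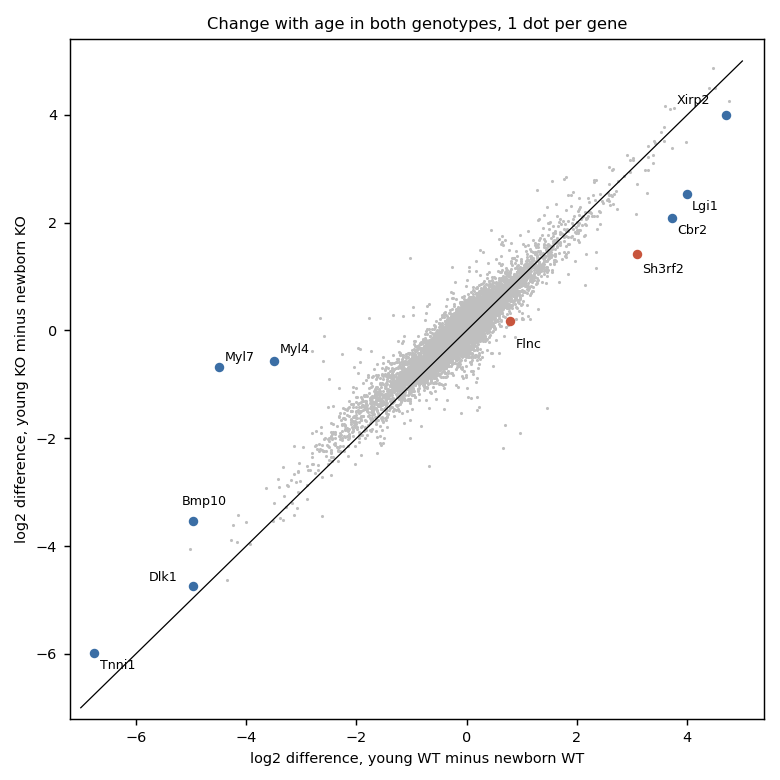
Log2 difference of young minus newborn hearts in WT (horizontal axis) against the same in KO hearts (vertical axis), 1 grey dot per gene, with the line of equal change. Sh3rf2 and Flnc (red) are the genes called for a difference between the genotypes; the blue genes are named in the text, and Myl7 and Myl4 lie off the line.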

How the data were processed

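Ventricle RNA of 24 samples, in 4 groups of 6, was hybridised to Affymetrix mouse arrays, 1 array per sample. What the authors deposited is a table of log2 signals made with RMA, that is background correction, quantile normalization and summary of probes. The submitters' processing notes name oligo 1.22, limma 3.14 and R 2.15. The scanner files were not used here, so no detection call or background bound was at hand. Of 35017 probe sets, 21118 carried 1 gene symbol, 1735 several and 12164 none in the platform annotation, and 21085 were matched to RefSeq by Entrez identifier. Where a gene had more than 1 probe set (1371 genes), the brightest on average stood for it, which left 18819 genes. No filter on signal was applied.

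Differences were tested with limma 3.58.1 in R 4.3.3, in a model of the 4 groups on all 24 arrays (20 residual degrees of freedom) with Benjamini-Hochberg adjustment over all genes at 0.05. The KO change and the difference between the 2 changes came from the same fit. List means were compared by exact permutation in Python 3.11.15 with scipy 1.17.1 and pandas 2.3.3. By the methods each sample was a separate heart. The steps were tested on simulated data. Alternatives were a filter on dim genes, median centring, quantile normalization, a variance trend, weights for arrays, a block for the replicate number, other rules for probe sets, WT arrays alone, the atrial and Y-linked means as covariates, and each array left out. The fit without young WT arrays 2 and 5 was chosen after seeing the data.

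The samples, the 55 gene lists (1522 of 1675 entries measured), the pairs and the motifs were chosen with earlier results of these data known. The genes named were the 12 largest rises and falls without overlap between the ages (microRNA genes, clone names and predicted genes set aside), from each list up to 3 of its largest rises and falls and the members that define its process, the pairs, up to 6 genes that differed between genotypes and the 5 largest changes of microRNA genes each way. Other genes were named for a known role after their values were seen. Some genes are not reported here.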

Additional observations from a re-analysis of the deposited data

Results flagged for a closer look

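In each group of 6 arrays, the gap of the highest or lowest array to its nearest neighbour was divided by the range of the group, and a ratio above 0.625 (Dixon's test, 95% level) marked an array that stood apart. Of 614 groups (the genes named in the report, without Alb and Apoa1, at both ages) 58 were marked, or 9.45%, where chance marks about 1 in 20. Young WT array 2 accounted for 20 of them and newborn WT array 4 for 15.

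The numbers in brackets are gap ratios. Newborn WT array 1 stood apart as the highest for Xist (0.926). The gap ratio marked newborn WT array 1 as the lowest for Opa1 (0.653) and Sgcd (0.633). For Dsc2 (0.662), Myl4 (0.783), Myl7 (0.759) and Sfrp1 (0.712), newborn WT array 2 was the lowest. Newborn WT array 3 stood apart as the highest for Hmga2 (0.666) and Ivd (0.645). The gap ratio marked newborn WT array 4 as the highest for Cd163 (0.723), Cdkn1a (0.643), Irs2 (0.652), Klf9 (0.627), Lmod2 (0.686), Mt2 (0.654), Myc (0.696) and Vwf (0.637). For Bmp7 (0.626), Casp8 (0.645), E2f8 (0.803), Gapdh (0.804), Mir703 (0.655), Peg10 (0.857) and Tmem255a (0.676), newborn WT array 4 was the lowest. Newborn WT array 5 stood apart as the highest for Cacna1h (0.63) and Ryr2 (0.68). The gap ratio marked newborn WT array 5 as the lowest for Apaf1 (0.64) and Slc16a1 (0.628). For Hk1 (0.7) and Pfkm (0.685), young WT array 1 was the highest. Young WT array 1 stood apart as the lowest for Casp1 (0.659). The gap ratio marked young WT array 2 as the highest for Cbr2 (0.792), Cnn1 (0.788), Col12a1 (0.756), Dpt (0.632), Eef1a1 (0.718), P4ha3 (0.669), Pcx (0.77), Pdk3 (0.772), Peg10 (0.628), Peg3 (0.668), Pygl (0.859), Thrsp (0.784), Tpm2 (0.625), Ucp1 (0.852) and Vwf (0.804). For Cavin4 (0.649), Echs1 (0.711), Fgf16 (0.739), Rpl3l (0.804) and Rxrg (0.667), young WT array 2 was the lowest. Young WT array 3 stood apart as the highest for Psmb8 (0.738). The gap ratio marked young WT array 3 as the lowest for Gapdh (0.641) and Pfkl (0.701). For Rb1 (0.69), young WT array 4 was the lowest. Young WT array 5 stood apart as the lowest for Nrf1 (0.768) and Racgap1 (0.672). The gap ratio marked young WT array 6 as the highest for Slc25a4 (0.629).

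The change with age differed between the genotypes, by the test of that difference (limma, adjusted p under 0.05), for Sh3rf2 (KO change minus WT change -1.68) and Flnc (-0.62).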

How the results depend on the processing

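The main counts in WT hearts were 3612 genes higher and 5242 lower. Median centring gave 9842 and 2989. With a fold of at least 1.5 they were 1289 and 2278, and with a fold of at least 2 they were 517 and 968. In KO hearts, 6398 higher and 4712 lower became 10029 and 3011 after centring, and the higher count was 3719 without the genes under the 30th percentile of signal, 4249 after a new quantile normalization and 10430 over all probe sets. The 2 genes called between genotypes became 1 after centring and 9 with a variance trend and robust moderation, and 1 to 24 with 1 array left out. Leaving out 1 array at a time gave 3268 to 3907 higher and 4929 to 5304 lower in WT hearts, 5544 to 6556 and 4386 to 4954 in KO hearts, -2.29 to -1.65 for the atrial mean (exact permutation p 0.00649 to 0.0433) and -2.21 to -0.97 for the Y-linked mean. The deviations of same-numbered newborn and young WT arrays correlated at -0.299 to 0.119. For each newborn array, the highest of its correlations with other numbers was larger, at 0.100 to 0.219. A single value is set here against the highest of several, so the comparison cannot show whether the replicate numbers pair the arrays. The replicate block gave 3300 higher and 5007 lower. Of the 307 named genes (Alb and Apoa1 left out) 278 were called, and 250 of these were called under all of 35 alternatives. Directions turned after centring for Mrps10 (0.02) and Nkx2-5 (0.04), and in the fit with the atrial mean for Myl7 (0.12) and Nppa (0.35). That fit also ended the calls of Actc1 (0.10), Atp2a2 (0.20), Cacna1h (-0.33), Ckb (-0.23), Ckm (0.12), Cnn1 (-1.16), Flna (-0.43), Insr (0.20), Mir122 (0.34), Mir219a-1 (0.30), Myl4 (-0.20), Myom2 (0.22), Myom3 (0.30), Nkx2-5 (-0.23), Pdgfra (-0.40), Pgam1 (-0.11), Pln (0.11), Plvap (-0.38), Pygb (0.21), Slc25a4 (0.21) and Upk3b (-0.78). The cause was not tested. The number of arrays limits the precision. In simulated data the fit called 84 of 100 genes set to a 1.5-fold change and 97 of 100 set to a 2-fold change. There 18619 genes were left unchanged and the noise was independent between arrays. In the real data 47% of genes were called, so these rates need not hold for them.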
